A study of Mus musculus with 12 samples.

Results

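The miRNAs described here are the arms of the miR-28, miR-151 and miR-708 hairpins, a family of mouse miRNAs related by sequence. They were chosen by name alone: every row called miR-28, miR-151 or miR-708 with exactly these numbers was taken, which gave 6 of the 1042 miRNAs measured. The family itself was selected on earlier results of the same libraries, in which miR-28-3p stood higher in fibroblasts than in pluripotent cells. Earlier comparisons of fibroblasts with ESCs and of reprogrammed cells with ESCs were known as well. Differences in level between fibroblasts, ESCs and reprogrammed cells are therefore given as a description and without a p-value. All 6 members passed the filter of at least 10 reads in at least 2 libraries, which 732 miRNAs passed in all, and no row was named miR-28 followed by a letter.

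Small RNA was sequenced in 12 libraries from 5 cell types. Mouse embryonic fibroblasts (MEFs, libraries 13, 14 and 15) were from C57B6/129SvJae F1 animals, and the ESC line E14 (libraries 2, 3 and 4) is of a different, 129/ola strain. The MEFs were turned into iPSCs (libraries 62 and 63) with Oct4, Sox2, Klf4 and c-Myc, delivered by a dox-inducible lentivirus. NT-ESCs (libraries 71 and 72) were made by transferring a MEF nucleus, and NT-iPSCs (libraries 51 and 52) by placing the nucleus of an iPSC in an enucleated oocyte. All reprogrammed lines thus share the strain of the MEFs, and strain cannot be told apart from reprogramming in a comparison with E14. Each cell type is 1 line and its libraries are batches of RNA from that line, so the errors measure the spread between batches and not between lines. The pluripotent cells were grown on irradiated MEF feeders.

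A miRNA hairpin is cut by Dicer into a duplex, and the arms of the duplex, called 5p and 3p, can each be loaded into Argonaute. The loaded arm finds its target mRNAs mainly through its seed, the bases 2 to 8 from its 5′ end, so miRNAs with the same seed are expected to share many targets. The hairpins of this family arose from an ancient transposable element. miR-28 is known as a suppressor of B cell lymphoma, miR-151 is carried with the focal adhesion kinase gene and promotes cell migration in liver cancer, and miR-708 is induced by the transcription factor CHOP under endoplasmic reticulum stress.

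Each hairpin lies inside a protein-coding gene. In GENCODE M21 (GRCm38) the miR-28 hairpin, annotated as Mir28a, is at chr16:24827855-24827940 on the plus strand within Lpp, which encodes a focal adhesion protein. The miR-151 hairpin is at chr15:73254815-73254882 on the minus strand within Ptk2, the gene of focal adhesion kinase. The miR-708 hairpin is at chr7:96249424-96249532 on the plus strand within Tenm4, also called Odz4, which encodes a teneurin. Each hairpin has the strand of its host, and none of the 3, 5 and 7 host transcripts that span the respective hairpins has an exon there, so all 3 hairpins are intronic. The submitters' processing notes name the build mm8, and these positions were not carried over to it.

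RefSeq (GRCm38.p6) gave the mature sequence of 4 of the 6 members, with miR-28 listed there as miR-28a. They are shown 5′ to 3′ because the seeds, in capitals, decide which members can be read together. The 5p arms of miR-28 (chr16:24827868-24827889, plus strand) and miR-708 (chr7:96249450-96249472, plus strand) come first, followed by the 3p arms (chr16:24827908-24827929 and chr7:96249496-96249517, both plus strand).
miR-28-5p: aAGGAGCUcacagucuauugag
miR-708-5p: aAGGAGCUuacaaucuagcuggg
miR-28-3p: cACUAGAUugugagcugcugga
miR-708-3p: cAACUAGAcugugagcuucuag
The 5p arms carry the same seed and are identical over their first 8 bases. Read from the 5′ end, 16 of 22 positions hold the same base. The 3p arms have different seeds and match at 2 of 22 positions when read from the 5′ end without a shift. They share a run of 8 bases, UGUGAGCU, at bases 9 to 16 of miR-28-3p and 10 to 17 of miR-708-3p. At the same offset their seeds, ACUAGAU and AACUAGA, share the bases ACUAGA. The count without a shift therefore understates how alike the 3p arms are. Of the 839 miRNAs of the table with a RefSeq sequence, none outside the family had the seed of any of these 4 members; the seeds of miR-151 were not compared. A shared seed in itself was common, as 226 of the 839 (26.9%) shared theirs with another miRNA of the table.

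The libraries held 4863365 to 8608689 miRNA reads, and every member had at least 126 reads in every library, so none was near the limit of detection. The fibroblast and feeder markers (6 miRNAs of the miR-199, miR-214 and miR-143/145 groups, none at 0 in any cell type) made up 57681 to 88277 reads per 1000000 miRNA reads (CPM) in MEFs. They made up 38496 to 42728 CPM in ESCs, 11313 to 12643 in iPSCs, 31958 to 32425 in NT-ESCs and 32814 to 37404 in NT-iPSCs. Markers of feeder cells were thus present in every pluripotent library, but the sums stand for different miRNAs. miR-143-3p made up 81.2% to 84.3% of the sum in MEFs and 93.3% to 95.3% in ESCs, whereas miR-199a-3p made up 83.6% to 90.5% of it in the reprogrammed libraries. The 7 pluripotency markers (miR-291a-3p, miR-294-3p, miR-295-3p and 4 miRNAs of the miR-302 and miR-367 cluster) summed to 33946 to 51850 CPM in the pluripotent libraries and to 0.254 to 4.99 CPM in MEFs, where miR-302a-3p, miR-302d-3p and miR-367-3p had no reads. In bulk RNA, fewer cells of a type and less RNA per cell cannot be told apart.

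The family made up 8077 to 10293 CPM in MEFs and 8139 to 9663 CPM in ESCs, ranges that overlap. In normalized reads (reads divided by the authors' size factor of the library) the sum was 95951 to 109882 in MEFs and 46959 to 55326 in ESCs, without overlap, so that the comparison of MEFs with ESCs rests on the scaling. In the 6 reprogrammed libraries the family made up 1179 to 1880 CPM, or 6894 to 9284 normalized reads, below MEFs and ESCs on both scales. Its makeup also differed between the cell types. miR-28-3p was the most abundant member in MEFs, with 55.6% ± 1.30 (SD, n = 3) of the reads of the family. In ESCs the most abundant member was miR-151-3p, with 39.3% ± 2.15 (SD, n = 3). In the reprogrammed libraries it was miR-708-5p, with 56.9% ± 7.45 (SD, n = 6), although this arm took only 0.904% ± 0.229 (SD, n = 3) in MEFs.

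**Figure D1:**
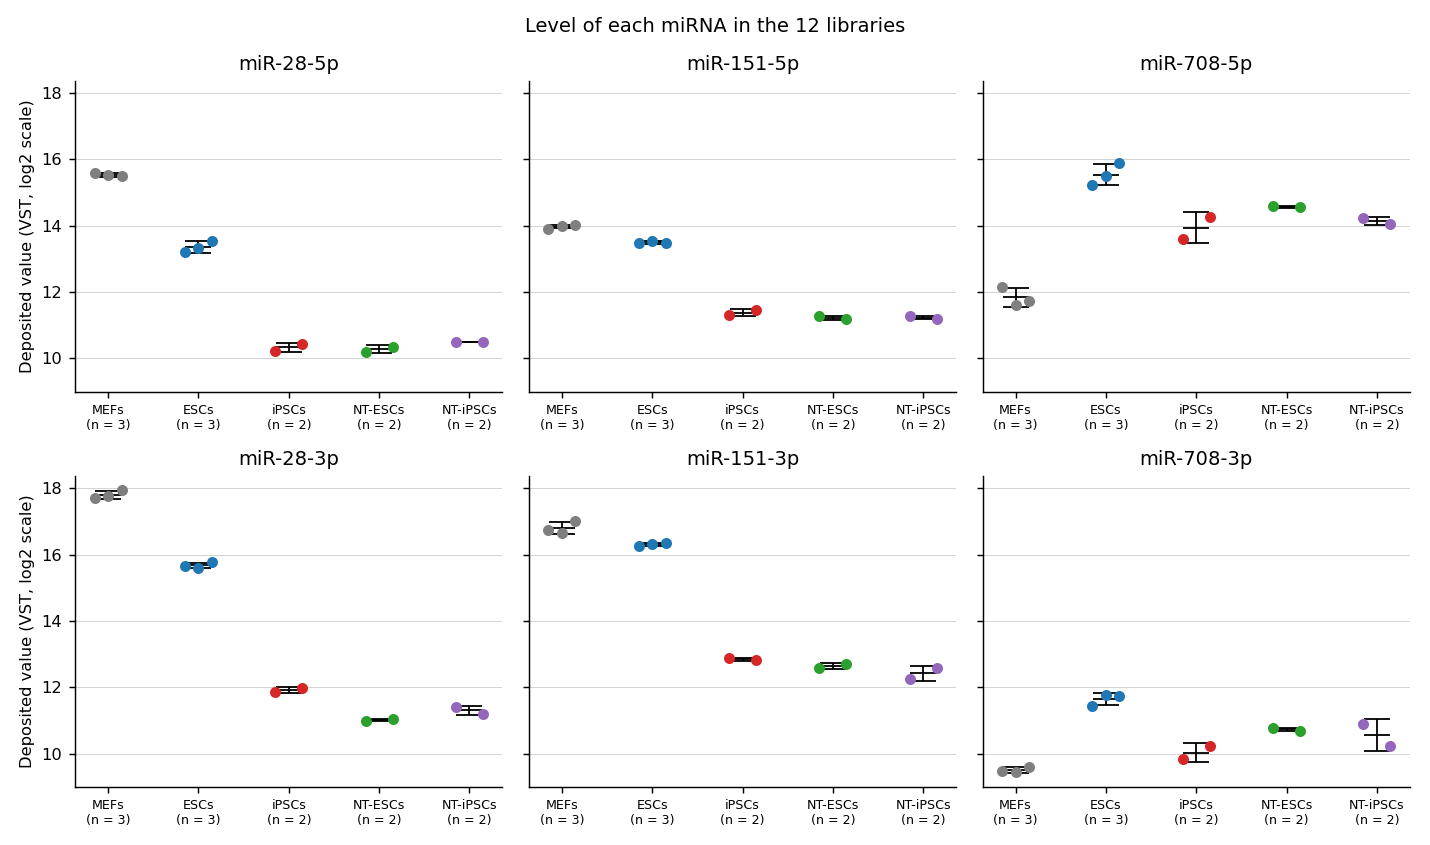
Deposited value (variance stabilized, log2 scale) of each of the 6 miRNAs in the 12 libraries, by cell type; points are libraries, and bars give the mean and SD. Both arms of miR-28 step down from MEFs over ESCs to the reprogrammed types, both arms of miR-151 are lower in the reprogrammed types than in MEFs and ESCs, whose own order depends on the scaling, and both arms of miR-708 are lowest in MEFs and highest in ESCs.

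Both arms of miR-28 were highest in MEFs, lower in ESCs and lowest in the reprogrammed cells. On the variance stabilized log2 scale (VST), in which a difference of 1 is close to a doubling for abundant miRNAs, mmu-miR-28-3p stood at 17.71, 17.77 and 17.94 in MEFs. It stood at 15.66, 15.60 and 15.77 in ESCs. In the reprogrammed cells its values were 11.86 and 11.97 in iPSCs, 10.98 and 11.04 in NT-ESCs, and 11.40 and 11.20 in NT-iPSCs. No library of a cell type overlapped those of another. The mean was 2.13 ± 0.118 (limma SE) higher in MEFs than in ESCs. The reprogrammed types differed from ESCs by -4.27 ± 0.103 (SE), 19.3-fold lower, and from MEFs by -6.40 ± 0.103 (SE), 84.2-fold lower. With all miRNA reads as the library size the difference from MEFs was -5.39, or 41.9-fold lower.

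mmu-miR-28-5p, the arm with the seed of miR-708-5p, was likewise highest in MEFs, followed by ESCs and then by the reprogrammed types. Its VST values were 15.61, 15.52 and 15.50 in MEFs and 13.20, 13.33 and 13.55 in ESCs. All 6 reprogrammed libraries lay between 10.19 and 10.51. The MEF mean was 2.18 ± 0.132 (SE) above that of ESCs, and the reprogrammed types differed from ESCs by -2.99 ± 0.114 (SE). iPSCs and NT-ESCs overlapped, whereas NT-iPSCs lay 0.17 above iPSCs without overlap, a direction that turned to -0.37 with all miRNA reads as the library size.

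Relative to the MEF mean in normalized reads, ESCs held 21.7% to 24.3% of miR-28-3p and 19.7% to 25.1% of miR-28-5p. The summed fibroblast and feeder markers were at 28.2% to 32.5% of their MEF level in the same libraries. The reprogrammed cells held 0.880% to 1.75% of the MEF level of miR-28-3p and 2.45% to 3.04% of that of miR-28-5p. The summed markers were at 6.62% to 30.9% there, but the list was split. miR-199a-3p was at 44.7% to 48.3% of MEFs in iPSCs and above the MEF mean in NT-ESCs and NT-iPSCs (163% to 226%), while the other 5 markers were below the MEF mean in every reprogrammed library. Over those 6 libraries miR-143-3p was at 0.844% to 3.39% of MEFs, miR-199a-5p at 0.883% to 6.91%, miR-214-3p at 2.64% to 12.1%, miR-199b-5p at 3.83% to 15.9% and miR-145-5p at 8.0% to 77.5%. Without miR-199a-3p the sum was 0.939% to 1.24% of MEFs in iPSCs, 2.80% to 2.98% in NT-ESCs and 3.33% to 3.81% in NT-iPSCs, and 30.8% to 35.7% in ESCs. In the same order of reprogrammed types, miR-28-3p was at 1.61% to 1.75%, 0.880% to 0.917% and 1.03% to 1.18%, and miR-28-5p at 2.50% to 2.89%, 2.45% to 2.74% and 3.03% to 3.04%. These percentages depend on the scaling: in CPM, ESCs held 38.6% to 45.9% of the MEF level of miR-28-3p and 37.1% to 47.6% of that of miR-28-5p, beside 54.2% to 60.1% of the summed markers. In the reprogrammed cells the values in CPM were 1.73% to 4.27% for miR-28-3p, 4.82% to 6.69% for miR-28-5p, 15.9% to 52.6% for the summed markers and 2.20% to 6.62% for the markers without miR-199a-3p. The part of feeder RNA in these values was not tested.

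Both arms of miR-151 were close in MEFs and ESCs and clearly lower in the reprogrammed cells. mmu-miR-151-3p, the more abundant arm in every library, had VST values of 16.74, 16.65 and 17.02 in MEFs and of 16.26, 16.33 and 16.35 in ESCs. It stood at 12.88 and 12.81 in iPSCs, 12.58 and 12.70 in NT-ESCs, and 12.25 and 12.58 in NT-iPSCs. The reprogrammed types differed from ESCs by -3.68 ± 0.116 (SE), which is 12.8-fold lower. For mmu-miR-151-5p the VST values were 13.91, 13.99 and 14.02 in MEFs, 13.49, 13.55 and 13.47 in ESCs, and 11.19 to 11.45 in the reprogrammed libraries. The difference of the reprogrammed types from ESCs was -2.22 ± 0.0961 (SE), or 4.67-fold lower, and the NT-ESC and NT-iPSC libraries overlapped.

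The order of MEFs and ESCs for miR-151 depended on the scaling between libraries. On the deposited values MEFs were 0.49 ± 0.134 (SE) higher for miR-151-3p and 0.47 ± 0.111 (SE) higher for miR-151-5p. With all miRNA reads as the library size, which shifted the median of all miRNAs in this comparison by -0.88, the differences were -0.41 and -0.42, and with TMM-type scaling, which shifted it by -0.50, they were -0.02 and -0.03. In CPM, miR-151-3p was at 2244, 2479 and 3024 in MEFs and at 3319, 3309 and 3561 in ESCs. No order of MEFs and ESCs is therefore given for miR-151. For the reprogrammed types against MEFs, all miRNA reads as the library size gave 8.94-fold lower miR-151-3p, beside 18.0-fold on the deposited values, and 10.5-fold higher miR-708-5p, beside 5.22-fold. Over the same scalings and upper quartile scaling, the difference of MEFs from ESCs kept its direction for miR-28-3p (1.24 to 2.38), miR-28-5p (1.29 to 2.43), miR-708-5p (-4.60 to -3.46) and miR-708-3p (-3.03 to -1.89). The lower level in the reprogrammed cells than in ESCs held in direction and without overlap under each of these scalings and under upper quartile scaling.

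miR-708 differed from miR-28 in the place of MEFs, with the lowest level of both arms in MEFs and the highest in ESCs. The values of mmu-miR-708-5p (VST) were 12.17, 11.62 and 11.72 in MEFs and 15.24, 15.51 and 15.89 in ESCs. In between lay iPSCs at 13.60 and 14.26, NT-ESCs at 14.59 and 14.55, and NT-iPSCs at 14.24 and 14.07. MEFs differed from ESCs by -3.71 ± 0.219 (SE), 13.1-fold lower. The reprogrammed types differed from ESCs by -1.33 ± 0.190 (SE) and were 2.38 ± 0.190 (SE) above MEFs, and NT-iPSCs and iPSCs overlapped.

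mmu-miR-708-3p, the minor arm of its hairpin, had 126 to 142 reads in MEFs and 286 to 808 in the other libraries. Its VST values were 9.49, 9.44 and 9.60 in MEFs and 11.44, 11.77 and 11.73 in ESCs. They were 9.83 and 10.22 in iPSCs, 10.77 and 10.69 in NT-ESCs, and 10.90 and 10.22 in NT-iPSCs. The difference from ESCs was -2.14 ± 0.197 (SE) in MEFs and -1.21 ± 0.171 (SE) in the reprogrammed types. NT-iPSCs overlapped with both NT-ESCs and iPSCs. In the MEFs, from which the reprogrammed cells were derived, miR-708 was thus lower and miR-28 higher than in those cells.

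All 6 members had no overlap between MEF and ESC libraries, between MEF and all pluripotent libraries, and between reprogrammed and ESC libraries. Of all 732 miRNAs, 79.9% and 52.5% had no overlap in the first and second of these comparisons, and 34.4% had none and were lower in the reprogrammed libraries, as all 6 members were. The first count was 4 of 6 with TMM-type scaling, the second 4 of 6 with TMM-type scaling or all miRNA reads as the library size. The median difference of the members between the reprogrammed types and ESCs was -2.61, while the median over all 732 miRNAs was 0.24. By size of this difference, miR-28-3p was in place 112 and miR-151-3p in place 156 of 732, with miR-708-3p in place 498.

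Both 5p arms with the shared seed can be read as a pool. In MEFs this pool was almost entirely miR-28-5p, and miR-708-5p made up 8.44% (95% Wilson interval 7.90 to 9.01), 6.30% (5.83 to 6.81) and 6.77% (6.27 to 7.30) of it in libraries 13, 14 and 15. In ESCs miR-708-5p made up 80.4%, 81.9% and 83.6% of the pool. Its share was 91.3% and 93.4% in iPSCs, 95.5% and 94.8% in NT-ESCs, and 93.0% and 92.2% in NT-iPSCs. The shares do not depend on the scaling between libraries, and the intervals cover counting error only.

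In size, the pool of MEFs was 12099 to 13266 normalized reads and that of ESCs 11708 to 17744, ranges that overlap. By CPM the pool of MEFs was 1116 to 1206 and that of ESCs 2029 to 3099, without overlap, so that the comparison of MEFs with ESCs again rests on the scaling. The reprogrammed cells had 3320 to 6276 normalized reads, below every MEF and ESC library. In CPM they had 717 to 1138, below every ESC library but overlapping with MEFs.

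**Figure D2:**
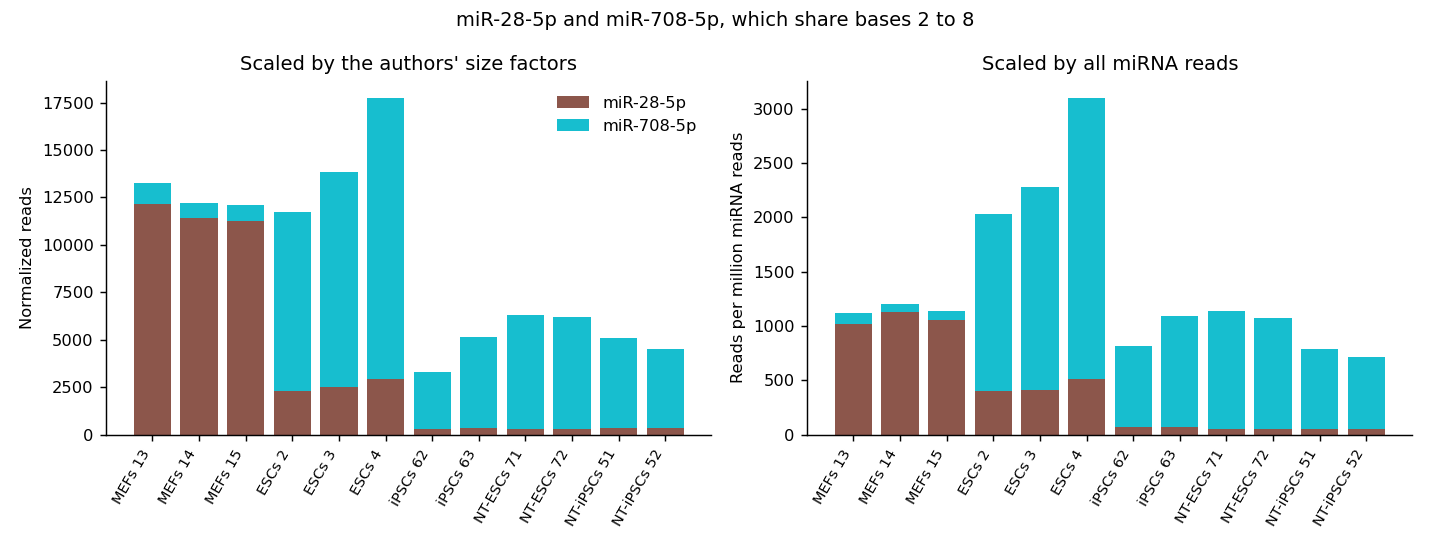
Summed level of miR-28-5p (brown) and miR-708-5p (cyan) in each library, in normalized reads (left) and in CPM (right). The pool is mostly miR-28-5p in the 3 MEF libraries and mostly miR-708-5p in the 9 others, and its size relative to MEFs depends on the scaling.

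The arms of a hairpin are made in equal numbers. Their ratio within a library does not depend on scaling between libraries, because the factor of the library cancels. It was tested for miR-151 and miR-708. The units of these tests are libraries, which are batches within a line, so the p-values do not cover the spread between lines. For miR-28 it is described without a test, because the ratio contains miR-28-3p, whose level was among the values on which the family was selected. miR-28 and miR-151 had more 3p than 5p reads in every library, and miR-708 more 5p than 3p reads. For miR-151, log2 of 5p to 3p reads was -2.83, -2.66 and -2.99 in MEFs, and the ESC libraries ran from -2.89 to -2.77. In the 6 reprogrammed libraries it was between -1.56 and -0.99. For each read of miR-151-5p there were thus 6.31 to 7.95 reads of miR-151-3p in MEFs. ESCs had 6.82 to 7.40 and the reprogrammed cells 1.98 to 2.95. The mean of the reprogrammed libraries was higher than that of ESCs by 1.46 (2.75-fold), with no overlap (p = 0.0119 in a two-sided exact permutation test, the least that 84 arrangements can give, and 0.0238 adjusted over 4 arm tests). Without ESC library 2 the adjusted p was 0.0566, in a design whose smallest p is 0.0357.

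miR-28 had a similar pattern. Its log2 ratio of 5p to 3p ran from -2.44 to -2.10 over the MEF libraries and from -2.46 to -2.22 over the ESC libraries. Its values were -1.64 and -1.54 in iPSCs, -0.79 and -0.69 in NT-ESCs, and -0.90 and -0.71 in NT-iPSCs. The mean of the reprogrammed libraries exceeded that of ESCs by 1.28 (2.42-fold), again without overlap. The ratios in the iPSC libraries lay between those of ESCs and those of both nuclear transfer types.

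miR-708 differed at another step, between MEFs and the pluripotent cells. Its log2 ratio was 2.69, 2.19 and 2.12 in MEFs and between 3.35 and 4.16 in the 9 pluripotent libraries, or 4.35 to 6.44 reads of miR-708-5p for each read of miR-708-3p against 10.2 to 17.9. The MEF mean was lower by 1.49 (p = 0.00455 in a two-sided exact permutation test, the least that 220 arrangements can give, and 0.0182 adjusted over 4 arm tests). Between the reprogrammed libraries and ESCs the ratio differed by -0.11, within the spread of the libraries (SD 0.233 and 0.228), with p = 0.524 in the exact permutation test, raw and adjusted. For miR-151, MEFs against all 9 pluripotent libraries gave -0.98 (exact permutation p = 0.0864, adjusted 0.115), where the pluripotent side joins ESCs at the level of MEFs with reprogrammed cells well above it. Without ESC library 3 or 4 its adjusted p was 0.0485 or 0.0476 in the exact permutation test.

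**Figure D3:**
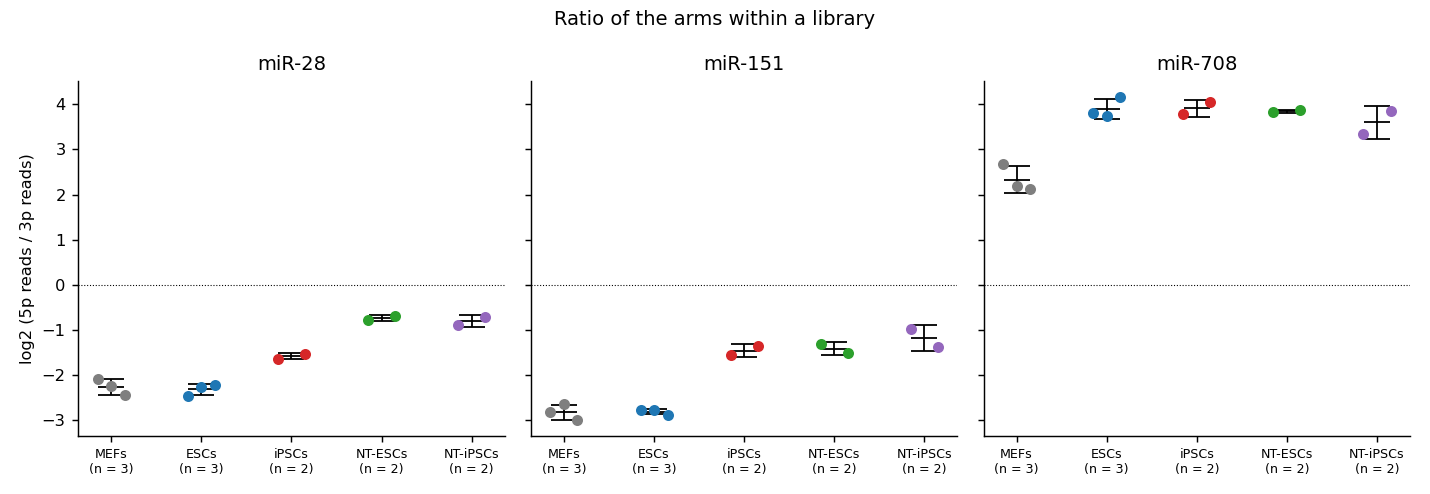
Log2 ratio of 5p to 3p reads within each library for the 3 hairpins, by cell type; points are libraries, bars give the mean and SD, and the dotted line marks equal reads. miR-28 and miR-151 have similar ratios in MEFs and ESCs and higher ratios in the reprogrammed types, whereas for miR-708 the MEFs are lower than all others.

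Such shifts of the arm ratio were common in these libraries. Of 407 hairpins with both arms in the table, 108 had at least 10 reads of each arm in every library. Between the reprogrammed and ESC libraries, 79.6% of the 108 did not overlap in their ratio, and the median size of the shift was 2.02 on the log2 scale. miR-151 was in place 68, miR-28 in place 73 and miR-708 in place 103 by size, so all 3 shifts were below the median size. Between MEFs and the pluripotent libraries 21.3% of the hairpins did not overlap, with a median size of 1.38, and miR-708 was in place 52. A difference between the cells and a difference in how the sets of libraries were made and counted cannot be told apart here. The same limit applies to the levels and pool shares of the reprogrammed cells beside those of ESCs and MEFs.

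**Figure D4:**
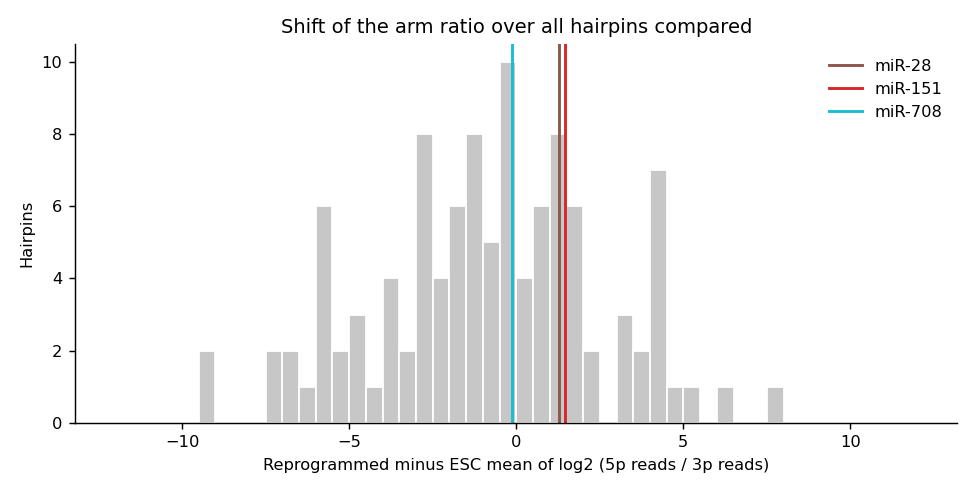
Distribution, over the 108 hairpins with at least 10 reads of each arm in every library, of the reprogrammed minus ESC difference in mean log2 ratio of 5p to 3p reads (x axis); the y axis counts hairpins, and lines mark miR-28, miR-151 and miR-708. miR-28 and miR-151 lie at 1.28 and 1.46 and miR-708 at -0.11, inside a wide distribution.

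The 3 ways of reprogramming start from the same MEFs, and their comparison asks whether the route leaves a difference in miRNA levels. The median size of the members' differences was 0.42 on the VST scale for NT-ESCs against iPSCs, 0.32 for NT-iPSCs against iPSCs and 0.23 for NT-iPSCs against NT-ESCs, beside 0.62, 0.60 and 0.48 over all miRNAs tested. Only miR-28-3p passed the threshold, with lower values in both nuclear transfer types than in iPSCs. NT-ESCs differed from iPSCs by -0.90 ± 0.145 (SE), or 1.87-fold (limma, adjusted p = 0.00132 over 732 miRNAs), and both NT-ESC libraries lay below both iPSC libraries. NT-iPSCs differed from iPSCs by -0.61 ± 0.145 (SE), or 1.53-fold (limma, adjusted p = 0.00936), again in 2 of 2 libraries. This second call was lost when only the groups compared entered the fit (limma, adjusted p = 0.0794) and without NT-iPSC library 52 (limma, adjusted p = 0.0617), while the first held in every alternative run, with an adjusted p of at most 0.0254. Both comparisons use the same iPSC libraries. The level of miR-28-3p was among the values on which the family was selected. Known at the selection were MEFs against ESCs, MEFs against the pluripotent types, and reprogrammed types against ESCs. The present contrasts were not among these, but the same libraries were in view, so these p-values are not those of an independent sample. They do not allow for the selection. The fibroblast and feeder markers summed to 11313 to 12643 CPM in iPSCs and 31958 to 37404 CPM in the nuclear transfer types, mostly as miR-199a-3p. Without miR-199a-3p they stood at 0.939% to 1.24% of their MEF level in iPSCs and at 2.80% to 3.81% in the nuclear transfer types, in normalized reads. The part of feeder RNA in the differences of miR-28-3p was not tested.

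In NT-ESCs against iPSCs the calls were 1 of 6 members, beside 25.7% of all miRNAs tested, and in NT-iPSCs against iPSCs 1 of 6 beside 26.5%. The other arm of the same hairpin, miR-28-5p, differed by -0.05 between NT-ESCs and iPSCs (95% interval -0.41 to 0.30) and by 0.17 between NT-iPSCs and iPSCs (-0.18 to 0.53). Whether the arms differ in their change was not tested. Both arms of miR-708 were higher in NT-ESCs than in iPSCs without passing the adjusted threshold. The difference was 0.64 (95% interval 0.05 to 1.23; limma adjusted p = 0.108) for miR-708-5p and 0.70 (0.17 to 1.24; limma adjusted p = 0.0528) for miR-708-3p. The adjusted p of miR-708-3p in limma ran from 0.0277 to 0.272 over the alternatives, so this arm stood at the threshold. Without iPSC library 63 the difference of miR-708-5p was 0.97, and without iPSC library 62 it was 0.31. With upper quartile scaling it was 0.72 and passed, and with all miRNA reads as the library size it was 0.28 and did not. Between NT-iPSCs and iPSCs, miR-708-3p differed by 0.53 (95% interval -0.003 to 1.06; limma adjusted p = 0.142), and by 0.87 without NT-iPSC library 52, which passed. Without NT-iPSC library 51 the difference was 0.19 and with all miRNA reads as the library size it was -0.01, neither of which passed.

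For miR-151-3p, NT-iPSCs differed from iPSCs by -0.43 (95% interval -0.79 to -0.06; limma adjusted p = 0.0833) and NT-ESCs by -0.20 (-0.56 to 0.16; limma adjusted p = 0.407). miR-151-5p differed by -0.16 and -0.15 from iPSCs in NT-ESCs and NT-iPSCs, with intervals of -0.46 to 0.14 and -0.45 to 0.15. With all miRNA reads as the library size, both arms of miR-151 were called lower in either nuclear transfer type than in iPSCs (differences of -0.52 to -0.97), with a shift of the median of all miRNAs by -0.36 for NT-ESCs and -0.54 for NT-iPSCs. Relative to that median the differences of miR-151-3p were close to those of the deposited values.

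Between NT-iPSCs and NT-ESCs, which differ in whether the transferred nucleus came from an iPSC or a MEF, 0 of 6 members passed the threshold in limma, beside 12.8% of all miRNAs tested. None had an unadjusted p under 0.05, and voom gave 0 by either measure. The differences ran from -0.42 for miR-708-5p (95% interval -1.01 to 0.18) to 0.29 for miR-28-3p (-0.03 to 0.61). The intervals do not show that the types have the same levels, as that of miR-708-5p reaches -1.01.

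**Figure D5:**
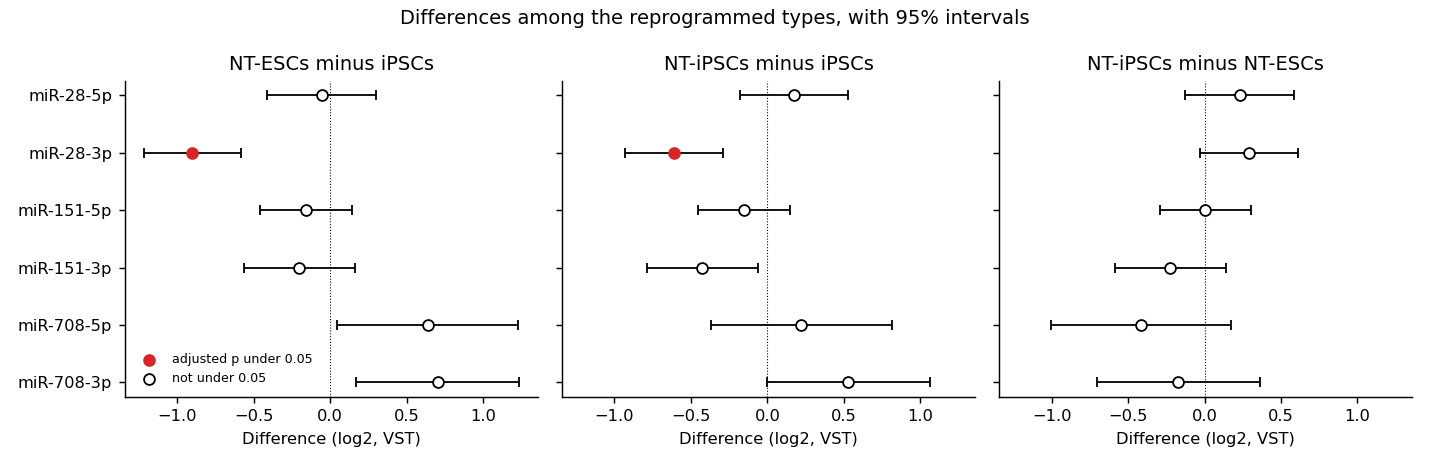
Difference in VST value between the reprogrammed types for each member (points) with the 95% interval of limma (bars); red points have an adjusted p under 0.05. miR-28-3p is lower in NT-ESCs (-0.90) and NT-iPSCs (-0.61) than in iPSCs, and no other member is red.

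Across the 12 libraries the members fell into miR-28 and miR-151 on the one side and miR-708 on the other. The Pearson correlations of VST values, given as a description over libraries that share their cell types, were 0.957 to 0.996 among the arms of miR-28 and miR-151 and 0.931 between the arms of miR-708. Between those sides they were -0.514 to -0.0108. The miRNAs with the most similar pattern were miR-155-5p and miR-503-3p for miR-28-5p (r = 0.995 and 0.994), and miR-667-5p and miR-503-3p for miR-28-3p (r = 0.995 and 0.994). miR-380-5p and miR-151-3p were nearest to miR-151-5p (r = 0.996 for both), and miR-148a-3p and miR-151-5p to miR-151-3p (r = 0.996 for both). For miR-708-5p they were miR-106a-5p (r = 0.986) and miR-3078-5p (r = 0.985), and for miR-708-3p miR-3078-5p (r = 0.949) and miR-1199-3p (r = 0.941). miR-106a-5p, of the miR-17 family, stood at a mean VST of 7.15 in MEFs, 15.25 in ESCs and 11.73 to 12.75 in the reprogrammed types.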

How the data were processed

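Small RNA of 18 to 30 nt from 12 RNA batches was sequenced on the Solexa platform. The authors trimmed and filtered the reads, assigned them to known miRNAs and scaled and variance stabilized them with DESeq. The deposited table gives a log2 value for each miRNA in each library. The DESeq version and the miRBase release are not given in the sources used here; the submitters' processing notes name mm8.

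The members and lists were chosen with earlier results of these data known. The transformation was inverted, which gave whole reads within 0.05 read for 100% of the nonzero values. Deposited values were fitted with limma (3.58.1, R 4.3.3), with 5 group means over all 12 libraries, trended empirical Bayes moderation and Benjamini-Hochberg adjustment at 0.05 over the 732 miRNAs that reached 10 reads in 2 or more libraries. The fit was tested on simulated data. Arm ratios of miR-151 and miR-708 were compared with two-sided exact permutation tests over libraries. Named miRNAs were the members, relatives by name or seed, and for each member the 2 miRNAs with the highest Pearson correlation over the libraries. Alternatives were other scalings, filters, a pseudocount of 1, voom, fewer groups, and each library left out. Python 3.11.15 and scipy 1.17.1 were used.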

Additional observations from a re-analysis of the deposited data

How the results depend on the processing

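No paired analysis was possible because the groups share no replicate numbers. The main limits are 2 or 3 batches of RNA from 1 line per type, and scaling: the use of all miRNA reads as the library size was added after seeing the data.

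For MEFs against ESCs, TMM-type scaling turned miR-151-5p from 0.47 to -0.034 and miR-151-3p from 0.49 to -0.022, and all miRNA reads as the library size turned them to -0.42 and -0.41. These scalings also shifted the median of all miRNAs by -0.50 and -0.88. For NT-ESCs against iPSCs, 1 member was called; this was 3 with upper quartile scaling and with all miRNA reads, and 2 with a pseudocount of 1 on the log2 scale, with at least 100 reads and with voom. It was 1 to 2 when a library was left out. For NT-iPSCs against iPSCs the count of 1 became 3 with all miRNA reads and 0 with only the groups compared, and was 1 throughout when a library was left out; without NT-iPSC replicate 52 the call was miR-708-3p in place of miR-28-3p. The causes were not tested.

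With a library left out, the arm ratio of miR-151 differed by -1.12 to -0.88 between MEFs and pluripotent cells, passing the threshold without ESC library 3 or 4 (differences of -1.10 and -1.12), and by 1.39 to 1.50 between reprogrammed cells and ESCs. The ranges were -1.67 to -1.38 and -0.20 to 0.016 for miR-708, where the change of sign, without ESC replicate 4, is within the spread of the libraries. Using deposited values or adding 1 read to each arm changed no call of the arm ratios of miR-151 and miR-708.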
